A study of Mus musculus with 2 samples.

Results

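Ribosome biogenesis and RNA polymerase I genes were followed in a mouse leukaemia driven by MLL/AF9, the product of a chromosomal translocation found in human acute leukaemia. The group holds 49 genes, chosen by name from nucleolar, rRNA processing and RNA polymerase I factors. All 49 were found among the 45318 genes of the count table, and all 49 passed the filter on low levels that 11504 genes passed. Mice of strain C57Bl/6 bearing this leukaemia received brequinar, an inhibitor of the pyrimidine synthesis enzyme dihydroorotate dehydrogenase, or vehicle. GFP-positive blasts were then sorted from bone marrow, and poly(A) RNA was sequenced. There was 1 library from brequinar-treated mice (brequinar cells below) and 1 from vehicle-treated mice (vehicle cells), so differences stand without replicates and no p-value is given. Both libraries share the strain, the fusion gene, the GFP sort and the tissue. The sources used here give no dose, no duration and no number of animals.

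Ribosomes are built in the nucleolus. RNA polymerase I transcribes the ribosomal DNA repeats into a long precursor, which snoRNPs modify at many bases. A large complex called the small subunit processome, together with separate large subunit factors, then folds, cuts and assembles the precursor with ribosomal proteins. Fast-growing cells, leukaemic blasts among them, devote much of their transcription to this work, and the transcription factor Myc is a known activator of many of its genes. rRNA itself carries no poly(A) tail and was not measured here, so the values describe the mRNAs of the machinery and not its output.

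Gene counts summed to 47950714 in brequinar cells and 47935476 in vehicle cells. Values are CPM, gene counts scaled to library size with TMM factors that correct for library composition, and ratios are brequinar over vehicle. Each interval is an exact 95% one for counting error alone, and sequenced copies of a fragment are not independent molecules, so the intervals may be too narrow even for that. The leukaemia genes Hoxa9 (231 CPM in brequinar cells, 238 CPM in vehicle cells) and Meis1 (87.4 and 71.6 CPM, in the same order) were present in both libraries. The 8 markers of T and NK cells summed to 3.19 CPM in brequinar cells and 1.19 CPM in vehicle cells. The 13 markers of blasts and myeloid progenitors summed to 8606 CPM in brequinar cells and 15666 CPM in vehicle cells, and did not move together. Of these, 6 were at least 1.5-fold lower, with the granule enzyme gene Mpo at 979 CPM in brequinar cells and 5912 CPM in vehicle cells, and 3 were at least 1.5-fold higher. Among the higher ones the surface marker Itgam stood at 1234 CPM in brequinar cells and 399 CPM in vehicle cells. Markers of mature myeloid and erythroid cells also differed between the libraries, although both were sorted for GFP. Whether the sorted leukaemia cells or others carried these transcripts cannot be told apart. All 12 markers of maturing neutrophils had ratios above 1, 11 of them at least 2-fold, and they summed to 24010 CPM in brequinar cells and 1564 CPM in vehicle cells. All 14 tested erythroid markers were at least 2-fold higher, with a sum of 297 CPM in brequinar cells and 84.3 CPM in vehicle cells. Tissue macrophage markers summed to 956 CPM in brequinar cells and 665 CPM in vehicle cells, a sum held mostly by Vcam1 and Adgre1, and 9 of the 12 were at least 2-fold higher (median log2 ratio 2.99). No marker of these 3 lists was at 0 in either library. The part of these transcripts' sources in the differences below was not tested, and in bulk RNA fewer cells of a type and less RNA per cell cannot be told apart.

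Promoters of some members that carry an E-box, the 6-base motif bound by Myc with its partner Max, are shown. Myc is the best known activator of these genes. The promoters were picked by name from 10 such members. They include the highest ratio of the 10 (Utp18, log2 ratio 0.20) and leave out the lowest (Utp20, -0.42), so they do not show how ratios go with the motif. Sequences are from RefSeq on GRCm38.p6, 5′ to 3′ along the gene's own strand, with the E-box in capitals.
Rrn3, chr16:13780459-13780681, plus strand: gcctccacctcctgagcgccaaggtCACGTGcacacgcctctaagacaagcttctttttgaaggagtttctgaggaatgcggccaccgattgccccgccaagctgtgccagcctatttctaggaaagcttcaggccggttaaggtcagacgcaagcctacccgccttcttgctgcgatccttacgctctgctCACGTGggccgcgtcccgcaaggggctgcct
Utp18, chr11:93885756-93885811, minus strand: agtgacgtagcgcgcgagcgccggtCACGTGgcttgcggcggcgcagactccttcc
Nop2, chr6:125131798-125131853, plus strand: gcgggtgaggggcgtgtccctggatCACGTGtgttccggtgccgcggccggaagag
Pes1, chr11:3963952-3963994, plus strand: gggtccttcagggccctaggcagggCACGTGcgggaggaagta
Imp4, chr1:34439683-34439738, plus strand: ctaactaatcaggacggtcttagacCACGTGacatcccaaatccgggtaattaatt
The promoter of Taf1d, the member with the lowest ratio, holds no E-box in its window, of which 140 bases are shown.
Taf1d, chr9:15306094-15306233, plus strand: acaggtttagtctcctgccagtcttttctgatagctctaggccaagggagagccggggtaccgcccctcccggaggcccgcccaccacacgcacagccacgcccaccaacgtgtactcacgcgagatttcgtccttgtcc

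Windows of 300 bases around annotated starts, most of each before the start, were held for 43 of the 49 members, 51 windows in all because some genes have several starts. No window was held for Npm1, Fbl, Bop1, Rrp12, Rrs1 and Wdr36, so the member values in this paragraph leave these genes out. The E-box CACGTG, which reads the same on both strands, occurred in 10 of the 51 windows (19.6%), against 10.3% of 11103 windows of genes past the filter and 7.15% of all 32851 windows. Relative to the annotated start, the first base of the motif lay at -215 and -48 in Rrn3, at -121 in Imp4, at -60 in Nop2 and at -20 in Utp18. In Pes1, Wdr43, Tsr1, Grwd1, Utp20 and Mybbp1a it lay after the start. The 10 members with an E-box had a median log2 ratio of -0.05 (range -0.42 to 0.20), and 5 of them lay below 0. The 33 without one had a median of -0.18 (range -1.17 to 0.23), with 25 below 0. The same split was not made over genes past the filter, so it does not tie the ratios to the motif. The ETS core CCGGAAG was found, on either strand, in 15 member windows (29.4%, against 18.9% of windows of genes past the filter). TGCGCA, part of the NRF1 motif, was found in 8 (15.7% against 14.1%) and the TATA box TATAAA in 3 (5.88% against 6.90%). An annotated start at C followed by 4 pyrimidines, the pattern of mRNAs whose translation follows nutrient signals, occurred in none of the member windows, in 2.32% of windows of genes past the filter and in 20.6% of the 68 windows of cytosolic ribosomal protein genes. With the pattern allowed from 5 bases before to 10 bases after the annotated start, the members' share was 19.6%, equal to the 19.6% of genes past the filter, and that of ribosomal protein genes was 44.1%. Members had a median of 21 CpG dinucleotides per window, close to the 20 of genes past the filter. These matches describe letters near annotated starts and are not binding measurements.

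The comparison asked how expression of the nucleolar machinery differed between brequinar-treated and vehicle-treated leukaemia. Most members stood slightly lower in brequinar cells, and few by much. The median log2 ratio was -0.14, a level 1.10-fold lower, and 36 of 49 members lay below 0. Background is given in 2 ways, over all 11504 genes tested (median log2 ratio 0.00, 49.9% below 0 and 50.1% above) and over the 6954 genes that average 20 CPM or more (median 0.05, 44.5% below 0 and 55.5% above), because every member had a mean of at least 22.4 CPM. Only Taf1d was at least 2-fold lower, against 4.4% of all genes tested and 1.27% of those of at least 20 CPM. No member was 2-fold higher, against 6.45% and 3.52%. Taf1d and Npm1 were at least 1.5-fold lower (2 of 49, or 4.08%), against 12.7% of all genes tested and 6.0% of those of at least 20 CPM. Scaling by total counts gave 5 such members and totals without the most abundant genes gave 4, with member medians of -0.23 and -0.22. Under these scalings the share of all genes tested rose as well, to 15.8% and 15.3%. With the TMM factors no member was 1.5-fold higher, against 12.7% of all genes tested and 9.92% of those of at least 20 CPM. At the smallest size used, a ratio of 5 to 4, 14 members (28.6%) were lower, against 23.7% and 14.9%, and no member was higher, against 23.2% and 22.4%. Of the members, 16 lay below the lower quartile of all genes tested and 22 below that of genes of at least 20 CPM, and 0 lay above the upper quartile of either. The counting interval lay wholly below 1 for 29 members, wholly above 1 for 10 and held 1 for the other 10. The same count was not made over all genes, so it does not set the members apart. Scaling by total counts moved log2 ratios by -0.09, a larger step than the typical half-width of a member's interval (0.066).

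Added together, the 49 genes made 6828 CPM in brequinar cells and 8142 CPM in vehicle cells, a sum 1.19-fold lower (interval 1.19 to 1.20). Without TMM factors, the members held 0.661% of gene counts (exact binomial interval 0.659% to 0.664%) in brequinar cells. In vehicle cells they held 0.840% (0.838% to 0.843%). The gap between these unscaled shares is wider, because the summed ratio was 0.787 under total counts against 0.839 with TMM. Ncl and Npm1 alone held 33.5% of the sum in brequinar cells and 37.3% in vehicle cells. Without them the sum was 4540 CPM in brequinar cells and 5102 CPM in vehicle cells, 1.12-fold lower.

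**Figure D1:**
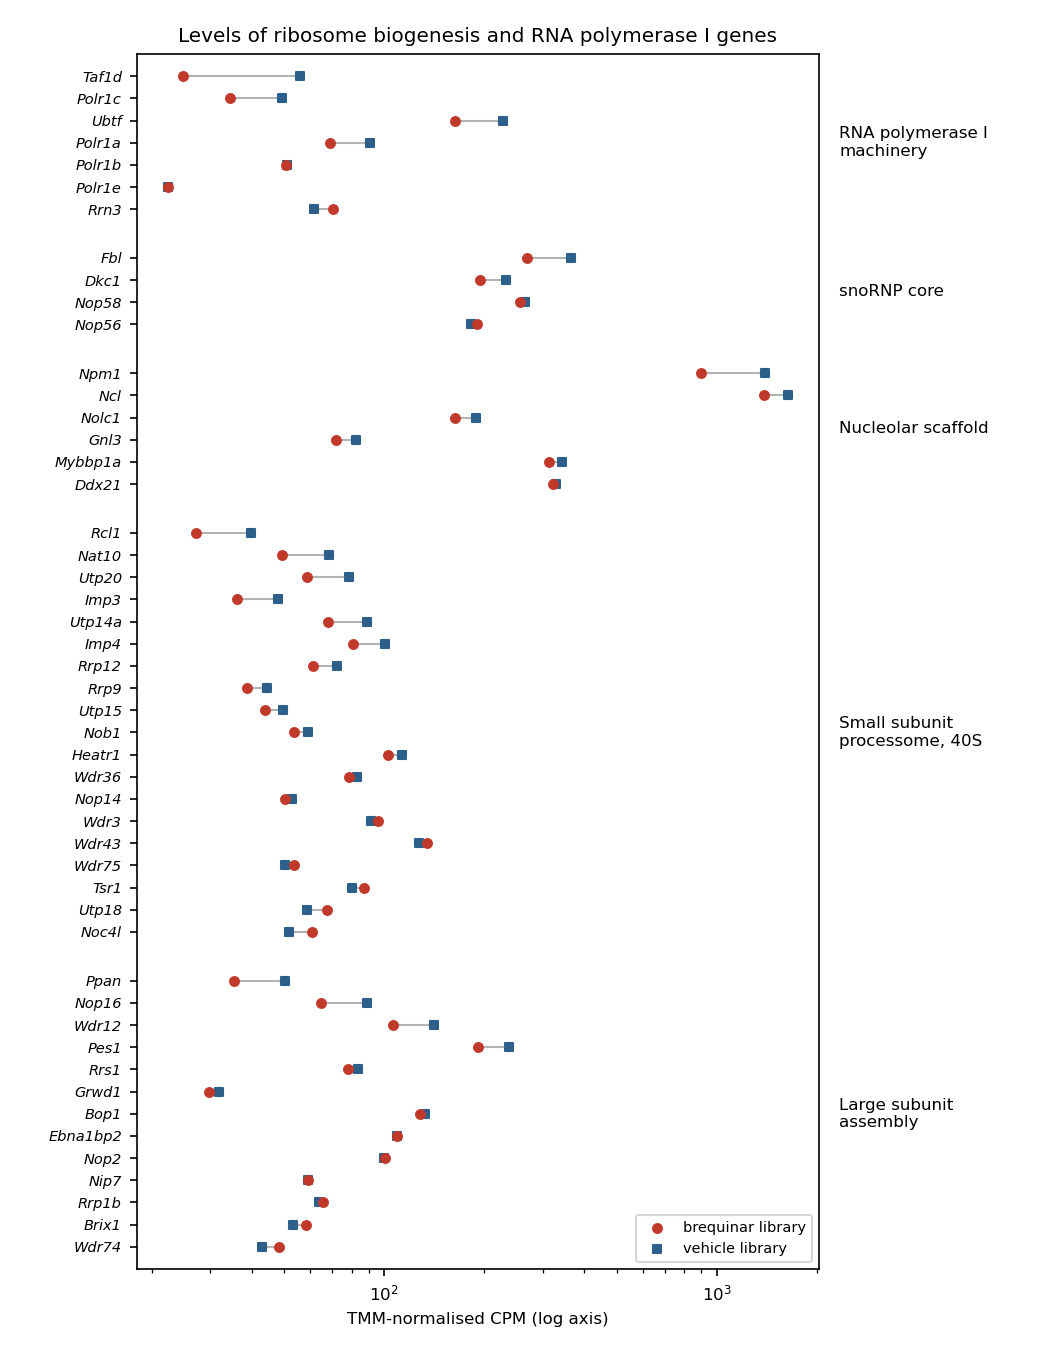
TMM-normalised CPM (log axis) of each of the 49 genes in brequinar cells (circles) and vehicle cells (squares), grouped by role, 1 library each. Npm1 and Ncl stand far above the rest, and the circle lies left of the square for 36 genes.

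Genes of RNA polymerase I and its promoter factors were the role group with the lowest median log2 ratio (-0.40, with 6 of 7 below 0). Taf1d encodes a subunit of the selectivity factor that places the polymerase on the ribosomal DNA promoter. It lies on chromosome 9 from 15306214 to 15316991 on the plus strand and is the gene with identifier ENSMUSG00000031939.12. It had 1156 counts in brequinar cells and 2769 in vehicle cells, or 24.9 and 56.0 CPM, and was 2.25-fold lower (interval 2.10 to 2.41). Of all genes tested, 3.07% had a lower log2 ratio than Taf1d.

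Taf1d is also the member with the most snoRNA genes within its bounds, 8 in all on its own strand. Of these 7 had counts, which summed to 171 in brequinar cells and 390 in vehicle cells, a ratio of 0.467 (interval 0.388 to 0.560) beside 0.445 (0.415 to 0.476) for Taf1d itself. A read from an unspliced host transcript and one from a snoRNA cannot be told apart in such counts, and poly(A) selection captures free snoRNAs poorly. On the opposite strand Taf1d overlaps Cep295 (37.4 CPM in brequinar cells, 39.8 CPM in vehicle cells) and 4931406C07Rik (23.2 and 27.4 CPM, in the same order), and the sources used here do not say whether counting used strand.

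The enzyme's own subunits did not stand at one ratio. Polr1a, the largest catalytic subunit, stood at 68.9 CPM in brequinar cells and 90.9 CPM in vehicle cells, 1.32-fold lower (interval 1.26 to 1.38). Its catalytic partner Polr1b stood at 50.7 CPM in brequinar cells and 51.0 CPM in vehicle cells, with an interval of the ratio (0.939 to 1.05) that held 1. The gap between these genes, whose products form the active centre together, was thus larger than the counting error of either. Polr1c, a subunit shared with RNA polymerase III, was 1.43-fold lower (interval 1.34 to 1.53), at 34.5 CPM in brequinar cells and 49.4 CPM in vehicle cells. Polr1e, a subunit of the polymerase's initiation module, stood at 22.3 CPM in brequinar cells and 22.4 CPM in vehicle cells (interval of the ratio 0.914 to 1.09) and was the member with the lowest mean level. It overlaps Fbxo10 on the other strand, which stood at 5.68 CPM in brequinar cells and 0.606 CPM in vehicle cells.

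The regulators of initiation parted in direction. Ubtf, an architectural protein that keeps ribosomal DNA open for transcription, stood at 163 CPM in brequinar cells and 228 CPM in vehicle cells, 1.40-fold lower (interval 1.36 to 1.44). Rrn3, which recruits the polymerase to the promoter and is a target of growth signals, was the single member of the role group above 0. It stood at 70.2 CPM in brequinar cells and 61.5 CPM in vehicle cells, a ratio of 1.14 (interval 1.09 to 1.20). Rrn3 is also the member with a pair of E-boxes in its promoter window, printed above. Whether the motif goes with its ratio was not tested.

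**Figure D2:**
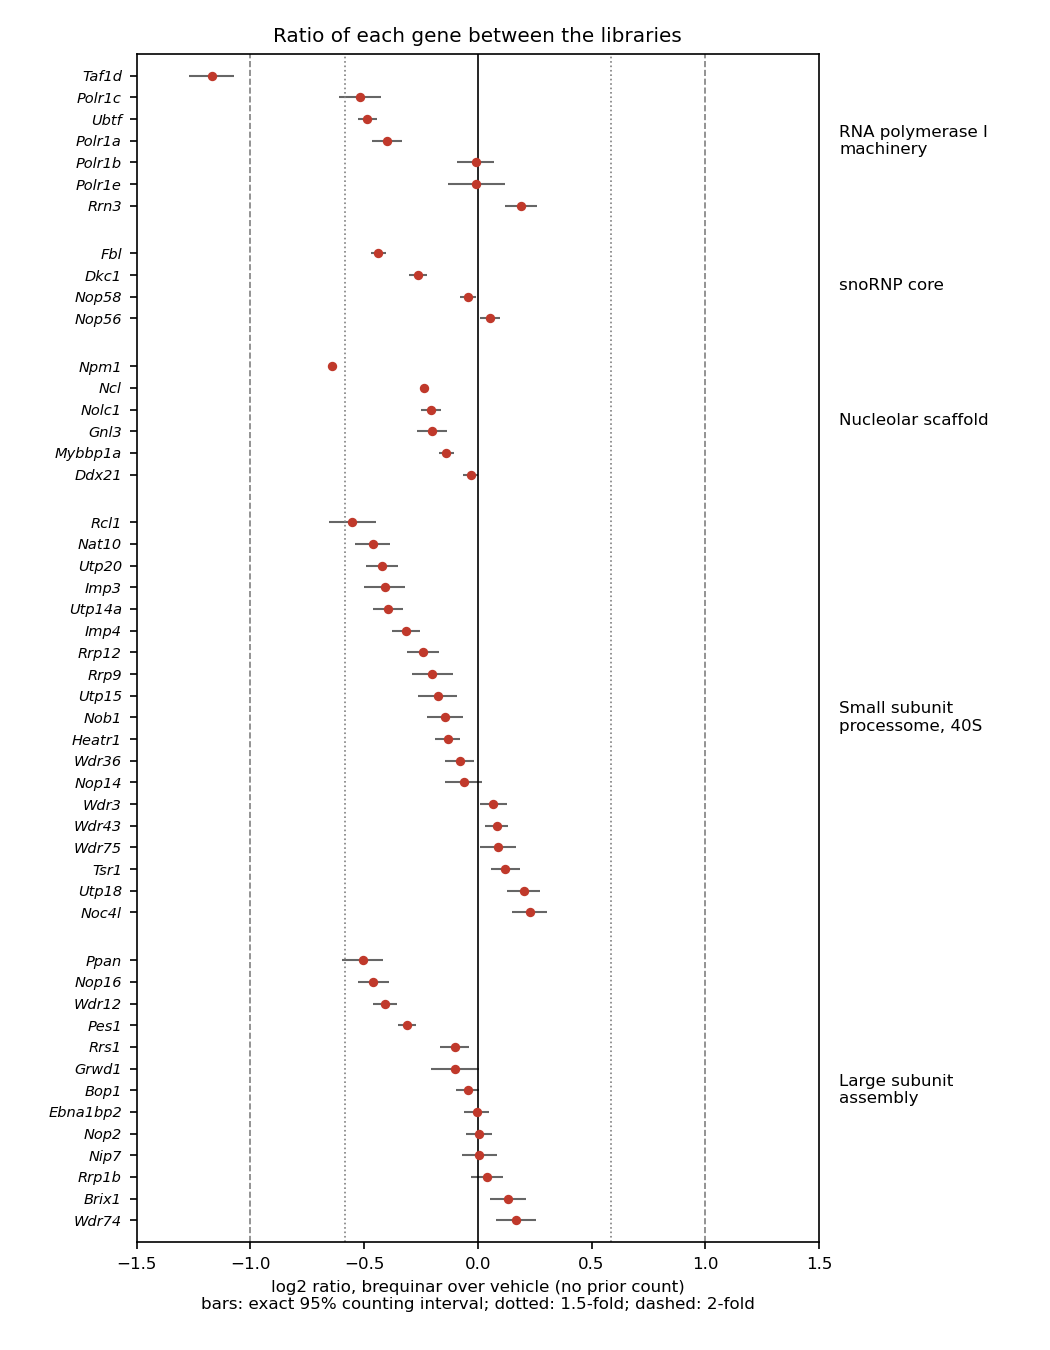
Log2 ratio of each gene (brequinar over vehicle, no prior count) with its exact 95% counting interval, grouped by role. Taf1d lies alone past 2-fold (dashed), Npm1 past 1.5-fold (dotted), and 10 genes have intervals that hold 0 on this axis.

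The 4 snoRNP genes had a median log2 ratio of -0.15, with 3 below 0. Fbl, the methyltransferase of box C/D snoRNPs, lies on chromosome 7 from 28169710 to 28179269. It stood at 269.5 CPM in brequinar cells and 365 CPM in vehicle cells, 1.35-fold lower (interval 1.32 to 1.38). Nop58 and Nop56 form the core of the same particles. Nop58 stood at 257 CPM in brequinar cells and 265 CPM in vehicle cells, with a ratio of 0.970 (interval 0.946 to 0.994). Nop56 had 189.8 CPM in brequinar cells and 183 CPM in vehicle cells, a ratio of 1.04 (interval 1.01 to 1.07) that lay below 1 under scaling by total counts and under totals without the most abundant genes. Dkc1, the pseudouridine synthase of box H/ACA snoRNPs, was 1.20-fold lower (interval 1.17 to 1.23), at 194 CPM in brequinar cells and 233 CPM in vehicle cells.

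All 6 genes of nucleolar scaffold and multifunctional proteins lay below 0 (median log2 ratio -0.20). Npm1 encodes nucleophosmin, which organises the granular layer of the nucleolus and is often mutated in human acute myeloid leukaemia. It lies on chromosome 11 from 33152287 to 33163206 on the minus strand. With 899 CPM in brequinar cells and 1402 CPM in vehicle cells it was 1.56-fold lower (interval 1.54 to 1.58). Processed copies of this gene exist, so its absolute level is uncertain where reads match several places.

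Ncl encodes nucleolin, an RNA-binding protein and histone chaperone, and was the most abundant member by CPM. It stood at 1389 CPM in brequinar cells and 1638 CPM in vehicle cells, 1.18-fold lower (interval 1.17 to 1.19). Per kilobase of exon, Npm1 came first with 337 CPM per kb in brequinar cells and 526 CPM per kb in vehicle cells. Ncl came next with 136 CPM per kb in brequinar cells and 161 CPM per kb in vehicle cells, ahead of Fbl with 64.0 and 86.7 CPM per kb in the same order. The order of the 49 levels per kilobase was nearly the same in both libraries, with a rank correlation of 0.97 across genes that share these libraries.

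Nolc1, a chaperone of snoRNPs, stood at 164 CPM in brequinar cells and 189 CPM in vehicle cells, 1.15-fold lower (interval 1.12 to 1.19). Gnl3, which encodes the GTPase nucleostemin, had 71.7 CPM in brequinar cells and 82.4 CPM in vehicle cells. It overlaps the more abundant Pbrm1 on the other strand, which stood at 204 CPM in brequinar cells and 156 CPM in vehicle cells. Mybbp1a, a nucleolar partner of Myb and p53, stood at 312 CPM in brequinar cells and 344 CPM in vehicle cells. The RNA helicase gene Ddx21 was nearest to 0 in this role group, at 322 CPM in brequinar cells and 329 CPM in vehicle cells, and its interval (0.957 to 1.001) held 1.

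The 19 genes of the small subunit processome and of later small subunit maturation had a median log2 ratio of -0.14, with 13 below 0 and 6 above. Rcl1, needed for an early cut of the precursor, was the lowest, 1.47-fold lower (interval 1.37 to 1.57) at 27.2 CPM in brequinar cells and 39.9 CPM in vehicle cells. Nat10, which acetylates cytidines of the small subunit rRNA, was 1.38-fold lower (interval 1.31 to 1.45), at 49.5 CPM in brequinar cells and 68.1 CPM in vehicle cells. Utp20, a very large scaffold protein of the processome, stood at 58.6 CPM in brequinar cells and 78.4 CPM in vehicle cells, 1.34-fold lower (interval 1.27 to 1.41). These genes were within 1.5-fold, and Rcl1 passed it under scaling by total counts and under totals without the most abundant genes.

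Imp3 and Imp4 sit in one subcomplex that helps pair the precursor with its guide snoRNA. Imp3 stood at 36.2 CPM in brequinar cells and 48.02 CPM in vehicle cells, and Imp4 at 80.9 CPM in brequinar cells and 101 CPM in vehicle cells. Utp14a, known in yeast as the activator of a processome helicase, had 67.7 CPM in brequinar cells and 89.1 CPM in vehicle cells. Rrp9, a protein of the guide snoRNP, stood at 38.7 CPM in brequinar cells and 44.5 CPM in vehicle cells. It overlaps Parp3 on the other strand, at 40.4 CPM in brequinar cells and 22.7 CPM in vehicle cells.

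The subcomplex that binds the precursor first in yeast, known there as UTP-A, has several mouse counterparts in the group. Among them Heatr1 stood at 103 CPM in brequinar cells and 113 CPM in vehicle cells, and Utp15 at 43.9 CPM in brequinar cells and 49.6 CPM in vehicle cells. Wdr43, the most abundant of the 19 genes, stood at 135 CPM in brequinar cells and 127 CPM in vehicle cells, a ratio of 1.06 (interval 1.02 to 1.10), and Wdr75 at 53.5 CPM in brequinar cells and 50.3 CPM in vehicle cells. So 2 of these 4 lay below 0 and 2 above, and Wdr43 and Wdr75 turned below 0 under scaling by total counts.

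UTP-B, a second such subcomplex, was divided as well. Wdr36 stood at 78.3 CPM in brequinar cells and 82.8 CPM in vehicle cells, Wdr3 at 96.1 CPM in brequinar cells and 91.7 CPM in vehicle cells. Utp18 had 67.6 CPM in brequinar cells and 58.8 CPM in vehicle cells, the highest of these ratios. Wdr3 lay below a ratio of 1 under scaling by total counts and under totals without the most abundant genes. Noc4l and Nop14 act as partners in yeast. Noc4l had the highest ratio of all 49 members, at 60.7 CPM in brequinar cells and 51.8 CPM in vehicle cells, while Nop14 stood at 50.5 CPM in brequinar cells and 52.7 CPM in vehicle cells, with an interval that held 1 (0.906 to 1.01).

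Factors of export and late maturation were also mixed. Rrp12, an export factor, stood at 61.0 CPM in brequinar cells and 72.1 CPM in vehicle cells. Nob1, the endonuclease that makes the last cut of small subunit rRNA, stood at 53.5 CPM in brequinar cells and 59.1 CPM in vehicle cells. Tsr1, a late assembly factor, had a ratio above 1, at 87.3 CPM in brequinar cells and 80.3 CPM in vehicle cells.

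Large subunit factors had the median nearest to 0 among the role groups (-0.04, with 8 of 13 below 0 and 5 above). Pes1, Bop1 and Wdr12 form one complex, PeBoW, in mammals, and their mRNAs did not stand at one ratio. Pes1 stood at 191 CPM in brequinar cells and 238 CPM in vehicle cells, 1.24-fold lower (interval 1.21 to 1.28). Wdr12 was 1.32-fold lower (interval 1.28 to 1.37), at 107 CPM in brequinar cells and 141 CPM in vehicle cells. Bop1 stood at 129 CPM in brequinar cells and 133 CPM in vehicle cells, with an interval of the ratio (0.936 to 1.005) that held 1. Bop1 overlaps Mroh1, at 52.6 CPM in brequinar cells and 52.4 CPM in vehicle cells, on the other strand.

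Ppan, whose yeast counterpart acts in early large subunit assembly, was the lowest of these 13. It stood at 35.5 CPM in brequinar cells and 50.4 CPM in vehicle cells, 1.42-fold lower (interval 1.33 to 1.51), and passed 1.5-fold under scaling by total counts. Nop16 was 1.37-fold lower (interval 1.31 to 1.44), at 64.8 CPM in brequinar cells and 89.0 CPM in vehicle cells. Nop2, which methylates large subunit rRNA, was the member nearest to 0 of all 49, at 100.3 CPM in brequinar cells and 100.02 CPM in vehicle cells. Its counting interval ran from 0.964 to 1.04.

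Close to Nop2 lay Ebna1bp2, at 109.3 CPM in brequinar cells and 109.6 CPM in vehicle cells, and Nip7, at 59.2 CPM in brequinar cells and 58.9 CPM in vehicle cells. Rrp1b stood at 65.4 CPM in brequinar cells and 63.6 CPM in vehicle cells. The intervals of these 3 genes held 1. Rrs1, an assembly factor of the large subunit's central protuberance in yeast, stood at 78.1 CPM in brequinar cells and 83.8 CPM in vehicle cells, and Grwd1 at 29.7 CPM in brequinar cells and 31.9 CPM in vehicle cells. Brix1 and Wdr74 had intervals wholly above 1. Brix1 stood at 58.4 CPM in brequinar cells and 53.2 CPM in vehicle cells, and Wdr74 at 48.2 CPM in brequinar cells and 42.9 CPM in vehicle cells.

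Other genes of the same pathway were taken from lists of 126 names, of which 124 were found and passed the filter. Their median log2 ratio was -0.06, with 78 below 0 (62.9%), 3 at least 1.5-fold lower and none at least 1.5-fold higher. The remaining RNA polymerase I subunits and factors, 15 genes, had a median of -0.10 with none past 1.5-fold. They are not all specific to this polymerase, since Polr2e, Polr2f, Polr2h, Polr2k, Polr2l and Tbp also serve the other nuclear polymerases. Taf1a and Taf1b belong to the same selectivity factor as Taf1d, and they lay on opposite sides. Taf1a stood at 7.97 CPM in brequinar cells and 11.5 CPM in vehicle cells, and Taf1b at 51.1 CPM in brequinar cells and 39.6 CPM in vehicle cells.

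Further snoRNP proteins and assembly factors (13 genes) had a median of -0.21 with 10 below 0 and none past 1.5-fold. Gar1 and Nhp2, partners of Dkc1 in box H/ACA particles, were among the lowest. Gar1 stood at 61.8 CPM in brequinar cells and 90.7 CPM in vehicle cells, and Nhp2 at 93.1 CPM in brequinar cells and 119 CPM in vehicle cells. The 36 other small subunit genes had a median of 0.00 (19 below 0, none past 1.5-fold), with Nol6 at 63.6 CPM in brequinar cells and 87.5 CPM in vehicle cells and Utp4 at 96.0 CPM in brequinar cells and 70.7 CPM in vehicle cells.

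Of 47 other large subunit genes (median -0.07, 33 below 0), Nop53 and Nsa2 were at least 1.5-fold lower and none was higher by that much. Nop53, a nucleolar protein that recruits the RNA exosome in yeast, stood at 110 CPM in brequinar cells and 182 CPM in vehicle cells, 1.66-fold lower (interval 1.60 to 1.72). Nsa2 stood at 139 CPM in brequinar cells and 213 CPM in vehicle cells. The 13 genes of the RNA exosome, which trims rRNA ends, had a median of 0.07 that turned below 0 with scaling by total counts (-0.02) and with totals without the most abundant genes (-0.01). Exosc5 alone among them passed 1.5-fold, at 69.0 CPM in brequinar cells and 125 CPM in vehicle cells.

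**Figure D3:**
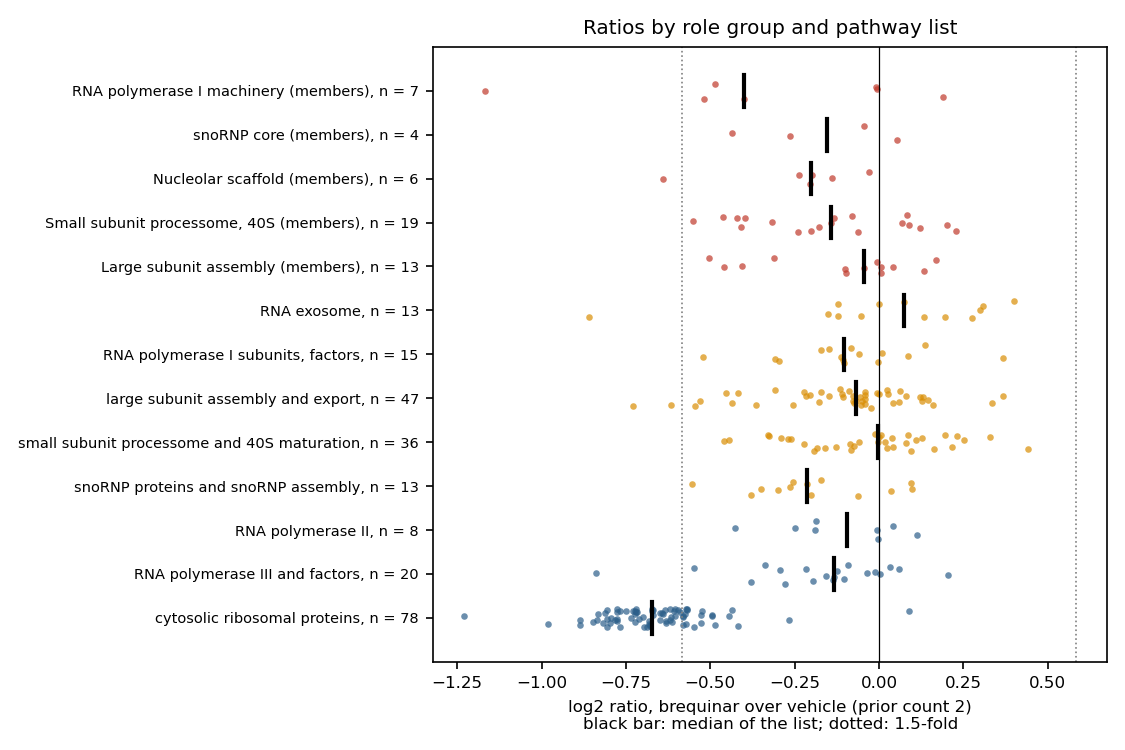
Log2 ratio (brequinar over vehicle, prior count 2) of each gene in the role groups of the 49 members (red), in other ribosome biogenesis lists (orange) and in comparison lists (blue), with the median of each list as a black bar. Cytosolic ribosomal proteins lie around -0.67, apart from the other lists, and few genes of the other lists pass 1.5-fold (dotted).

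The products that these factors assemble stood further down. Of 78 cytosolic ribosomal protein genes past the filter, 77 lay below 0 and 58 (74.4%) were at least 1.5-fold lower, with a median log2 ratio of -0.67 against -0.14 for the 49 members. Only Taf1d among the members lay below that ribosomal protein median, while Npm1, at -0.64, came next. These are descriptions of 2 lists in the same pair of libraries, since a test of their difference would need replicates. Many processed pseudogenes copy ribosomal protein genes, so their levels are uncertain. The 20 genes specific to RNA polymerase III and its factors had a median of -0.13. The 8 subunits specific to RNA polymerase II had a median of -0.10, which turned above 0 (0.03) after a correction for transcript length and GC content, and none passed 1.5-fold. 

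**Figure D4:**
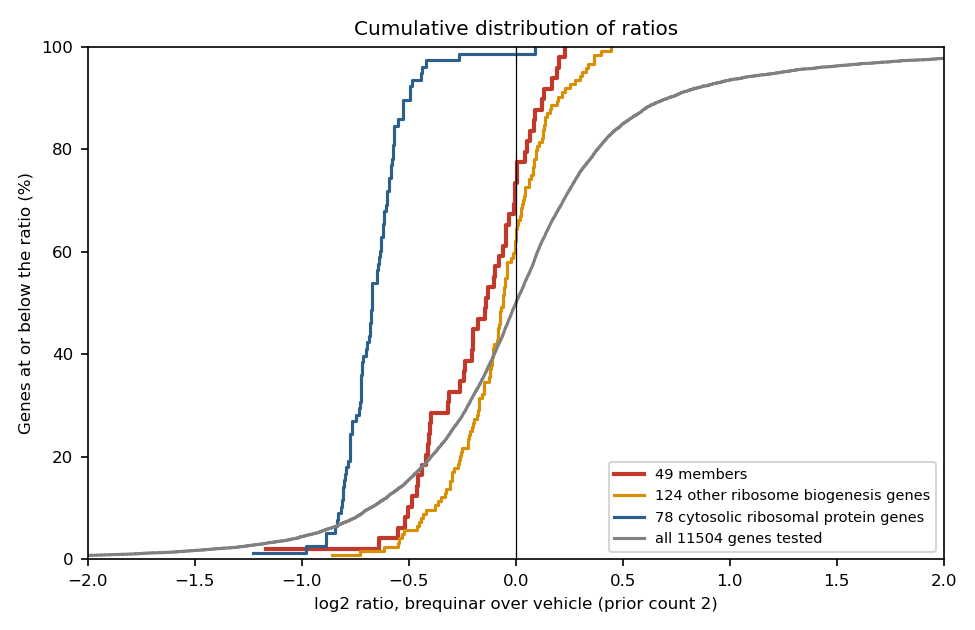
Cumulative percentage of genes at or below each log2 ratio (brequinar over vehicle) for the 49 members, 124 other ribosome biogenesis genes, 78 cytosolic ribosomal protein genes and all 11504 genes tested, with the axis limited to ratios between -2 and 2. The members' curve reaches 73.5% at a ratio of 0 and is steeper than that of all genes.

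Genes known to regulate ribosomal DNA transcription and growth (18 tested, 2 of them also on the lists above) had a median of 0.09, with 10 above 0 and 8 below. Under scaling by total counts this median lay at 0.00, just below 0. Of the 18, 4 were at least 1.5-fold higher and 1 lower, against 12.7% of all genes tested in each direction. The lower one was Nop53, already given among the large subunit genes. Myc itself, named for its role after its value was seen, stood at 97.52 CPM in brequinar cells and 118 CPM in vehicle cells, 1.21-fold lower (interval 1.16 to 1.255). Mxd1, which competes with Myc for Max at E-boxes, stood at 59.3 CPM in brequinar cells and 30.5 CPM in vehicle cells, 1.95-fold higher (interval 1.83 to 2.07). Max was 1.27-fold higher (interval 1.22 to 1.32), at 111 CPM in brequinar cells and 87.4 CPM in vehicle cells. Mdm2, the p53 ligase that free ribosomal proteins bind, was 2.09-fold higher (interval 1.99 to 2.19), at 105 CPM in brequinar cells and 50.3 CPM in vehicle cells. Cdkn2a, whose Arf product binds nucleophosmin in the nucleolus, was 2.42-fold higher (interval 2.08 to 2.83), at 11.8 CPM in brequinar cells and 4.89 CPM in vehicle cells. The counts are for the whole Cdkn2a gene and do not tell the Arf transcript from its others. Trp53, the gene of p53, was 1.18-fold lower (interval 1.14 to 1.23), at 116 CPM in brequinar cells and 137 CPM in vehicle cells. Whether any of these regulators had a part in the members' ratios was not tested.

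The members lie on 19 chromosomes, with at most 6 on one (chromosomes 1 and 11). Their log2 ratio followed neither length nor abundance closely. Across the 49 genes, the rank correlation with exonic length was -0.12, with GC content of the longest transcript -0.11 and with mean CPM -0.02, where over all genes tested the values were 0.09, -0.16 and 0.16. Genes are not independent replicates, and all points share the same 2 libraries. Annotated snoRNA genes lie inside 9 of the members, which had a median of -0.20 with 6 below 0, while the 40 others had a median of -0.14 with 30 below 0. Outside Taf1d the snoRNA rows held few counts, at most 20 in brequinar cells and 34 in vehicle cells per host gene.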

How the data were processed

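The deposited file holds whole-number read counts per gene, not normalised, for 2 libraries; per the submitters' processing notes the tools include STAR 2.4.2a and Picard 1.99 and 2.2.4, on mm10. Neither the counting program nor its strand setting or annotation is given in the sources used here. Columns were matched to samples by name. The 4 closing lines that name no gene held 20.2% of reads in the brequinar library and 21.6% in the vehicle library (multimapping reads 6.92% and 7.39%) and were left out. Symbols, positions and exonic lengths came from GENCODE M21 (GRCm38, the assembly mm10 names) by identifier without version, and 44671 of 45318 identifiers matched.

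Scaling used TMM factors from edgeR 4.0.16 under R 4.3.3 (0.969 for brequinar and 1.03 for vehicle). Log2 ratios used a prior count of 2, over genes averaging 1 CPM or more. A single count was worth 0.0215 CPM in brequinar cells and 0.0202 CPM in vehicle cells. Folds and exact (Clopper-Pearson) 95% intervals, conditional on a gene's summed count, used no prior. Since each treatment has 1 library, no test was made, and fixed sizes of 1.25, 1.5 and 2-fold served as calls. Code was tested on simulated counts. Other software was matplotlib 3.10.9, statsmodels 0.14.6, scipy 1.17.1 and pandas 2.3.3 on Python 3.11.15, and DESeq2 1.42.0 gave alternative size factors.

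The members, role groups and lists were chosen with earlier results of these data known. Values are given in full for members past 1.5-fold, for the 3 largest absolute ratios, the smallest and the most abundant gene of each role group, and for 10 core genes. Each list of other pathway genes names at most the 3 with the largest absolute ratios. Myc, Max and Trp53 in the regulator list fall outside this rule and were named for their roles with their values known. Cell type markers were not bound by this rule. Riok2, Exosc6 and Gtf3c2 were not analysed here.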

Additional observations from a re-analysis of the deposited data

How the results depend on the processing

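With the DESeq2 size factors, no filter, filters at 5 and 20 CPM, and prior counts of 0.5 and 5, the number of members below 0 and the counts past 1.5-fold and 2-fold were as reported and the median was -0.14. The members' median log2 ratio ran from -0.23 to -0.14 over the settings that use medians, and its distance from the median of all genes tested from -0.18 to -0.12. With means in place of medians this distance was -0.22. Scaling by total counts gave a median of -0.23, 5 members at least 1.5-fold lower (Taf1d, Npm1, Polr1c, Ppan and Rcl1), 43 below 0 and a summed ratio of 0.787. Leaving mitochondrial genes and the top 50 by abundance out of the totals gave -0.22, 4 members, 41 below 0 and 0.794. Of all genes tested, 15.8% were at least 1.5-fold lower under total counts and 15.3% under these reduced totals, against 12.7% as reported. Upper-quartile scaling gave a summed ratio of 0.819, against 0.839 as reported. Under total counts 7 members changed sign (Nip7, Nop2, Nop56, Rrp1b, Wdr3, Wdr43 and Wdr75), and the median of all genes moved by -0.09. The length and GC correction left 34 members below 0. Taf1d stayed past 2-fold and Npm1 past 1.5-fold in the settings run. No paired analysis was possible because each group holds 1 library. Depth was no limit for members, whose counts were at least 1038 in brequinar cells and 1110 in vehicle cells, but with 1 library per group the spread between animals is unknown.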
